A study of Mus musculus with 36 samples.

Results

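Chemokine receptors are surface proteins that steer T cells along gradients of small secreted proteins, the chemokines. The 7 receptor genes described here are ones by which helper T cell lineages are commonly told apart. They were Cxcr3, Cxcr4, Cxcr5, Cxcr6, Ccr4, Ccr6 and Ccr8, chosen by name, and each was represented by 1 probe set that carried no other gene symbol. They were 7 of the 22180 genes so measured, and all 7 were among the 13082 genes tested, those above the median of the whole table (5.26 on the log2 scale, here the filter level) in at least 3 samples. Cxcr5 was above that level in 12 of the 36 samples and Ccr6 in 11, so the lowest values of these genes lay where the array gives little signal.

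The data were array values, in log2 units, from CD4 T cells of wild-type littermate mice (WT) and of mice labelled TRIM28 KO (KO). Naive cells, sorted by flow cytometry, were profiled beside cells stimulated for 72 h with antibodies to CD3 (fixed to the plate) and CD28 (in solution) in conditions named Th0, Th1, Th2, Th17 or Treg. This gave 12 groups of 3 samples, and the number of arrays limits the precision. The labels name neither the cytokines that define the conditions, nor the deleted allele, any Cre driver or the age of the mice. They carry no record of whether a group's samples were taken from different mice. The p-values therefore rest on the spread of these samples alone, which may be technical. TRIM28 (KAP1) is a co-repressor brought to DNA by zinc-finger proteins with a KRAB domain.

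Chemokine receptors couple to inhibitory G proteins and from there to the kinases and small GTPases that move the cell. CXCR3, which binds CXCL9, CXCL10 and CXCL11, marks Th1 cells and is a target of T-bet, and CXCR6, which binds CXCL16, is found on activated and tissue-resident T cells. CCR4, which binds CCL17 and CCL22, and CCR8, which binds CCL1, are typical of Th2 and of regulatory T cells. CCR6, the receptor of CCL20, marks Th17 cells, CXCR5 leads follicular helper cells towards CXCL13 in B cell follicles, and CXCR4 binds CXCL12 and holds cells in bone marrow and lymph node.

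Promoters are described because the lineages are defined by DNA-binding factors. Those of 4 receptors are shown, each with a match to 1 of the motifs below. The Cxcr4 and Cxcr6 promoters, which held no match, are not shown. Each promoter runs from 250 bases before to 50 bases after the start of the gene, along the gene, from RefSeq on GRCm38.p6. Promoters were found there for 6 of the 7 receptors, 7 promoters in all. Searched on both strands were TCACAC (the T-box half-site bound by T-bet), AGATAA (bound by GATA factors such as GATA3), TAGGTCA (a ROR response element) and TGANTCA (AP-1), motifs chosen with these sequences in view. Capitals mark the matches.
Cxcr3, chrX:101734098-101734397, minus strand: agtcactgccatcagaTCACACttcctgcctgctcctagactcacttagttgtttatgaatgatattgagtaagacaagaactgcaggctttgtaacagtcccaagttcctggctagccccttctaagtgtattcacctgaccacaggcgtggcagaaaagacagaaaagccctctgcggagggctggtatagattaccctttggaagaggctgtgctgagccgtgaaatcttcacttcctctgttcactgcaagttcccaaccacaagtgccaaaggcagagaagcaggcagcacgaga
Ccr4, chr9:114496495-114496794, minus strand: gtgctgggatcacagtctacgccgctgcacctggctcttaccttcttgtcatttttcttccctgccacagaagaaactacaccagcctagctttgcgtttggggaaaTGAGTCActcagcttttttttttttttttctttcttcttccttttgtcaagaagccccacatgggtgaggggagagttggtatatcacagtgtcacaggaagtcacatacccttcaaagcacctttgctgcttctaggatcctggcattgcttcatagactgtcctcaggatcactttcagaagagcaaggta
Ccr6, chr17:8235793-8236092, plus strand: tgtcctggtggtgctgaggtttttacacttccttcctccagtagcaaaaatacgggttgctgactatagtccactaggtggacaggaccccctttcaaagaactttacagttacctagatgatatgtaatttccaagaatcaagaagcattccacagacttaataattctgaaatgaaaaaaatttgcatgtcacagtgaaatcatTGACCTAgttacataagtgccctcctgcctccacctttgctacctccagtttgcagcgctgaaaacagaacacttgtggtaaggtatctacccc
Ccr8, chr9:120091883-120092182, plus strand: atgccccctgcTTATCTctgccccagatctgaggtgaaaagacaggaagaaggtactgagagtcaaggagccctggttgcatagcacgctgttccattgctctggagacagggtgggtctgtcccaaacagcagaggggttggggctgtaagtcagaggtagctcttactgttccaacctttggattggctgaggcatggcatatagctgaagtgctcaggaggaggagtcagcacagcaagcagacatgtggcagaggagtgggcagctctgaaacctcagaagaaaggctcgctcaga
The Cxcr3 promoter held the T-box half-site 234 bases before the start, as did 14.5% of all 32851 promoters of this length on either strand. In the Ccr4 promoter, TGAGTCA, an AP-1 match, lay 143 bases before the start (7.81% of promoters held one). TGACCTA in the Ccr6 promoter, the reverse complement of the ROR element, lay 44 bases before the start (2.61%), and TTATCT in the Ccr8 promoter, the reverse complement of the GATA motif, 239 bases before it (11.2%). A second Ccr6 promoter, at chr17:8242276-8242575, held AGATAA 70 bases before its start. The Cxcr4 and Cxcr6 promoters held none of the 4 motifs in this window. A match is a description of the letters and no evidence of binding.

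Trim28 itself checked the labels. Its log2 level was between 9.21 and 9.99 in the WT samples, between 7.20 and 7.86 in naive KO cells and between 5.51 and 6.58 in stimulated KO cells, with no overlap of the genotypes. It fell 3.95-fold in naive KO cells and 14.3-fold in KO Th0 cells. All 7 CD4 T cell markers (Cd3d, Cd3e, Cd3g, Cd4, Cd5, Cd28 and Lat) were above the filter level in every group. Some were higher in KO than in WT cells at an adjusted p under 0.05 in limma. These were Cd3e (by 0.28, 0.39 and 0.31) and Cd3d (by 0.22, 0.26 and 0.27) in Th0, Th1 and Th2 cells. Cd3g was higher in Th1 (0.23) and Th2 (0.29), Cd4 in Th1 (0.36) and Cd5 in Th2 cells (0.35). Sample 1 of KO Th0 and sample 1 of KO Th1 stood apart: Mki67, a marker of dividing cells, was at 8.61 and 9.0 there and between 10.6 and 10.9 in the other samples of these groups. Gzmb, the gene of granzyme B, was at 5.84 and 6.07 in those same samples and between 9.14 and 10.08 in the others of these groups. The KO Treg samples were uneven too, with Mki67 at 9.30, 9.35 and 10.43. Samples 1 and 2 of KO Treg were also the lower ones for Ccr6 and Cxcr4. Mki67 fell by 1.66 in KO Th0 (p 0.0024) and by 1.20 in KO Th1 cells (p 0.022). Without KO Th0 1 the first difference was -0.94 (p 0.051; p 0.0032 with KO Th1 1 left out too) and without KO Th1 1 the second was -0.55 (p 0.30), and the second was also lost without WT Th1 2 (p 0.053) or WT Th1 3 (p 0.057). The part of Mki67 and Gzmb in the receptor results was not tested. Xist, the RNA of the inactive X chromosome, was high in 1 WT and 2 KO naive samples and low in all others. In such bulk samples, fewer cells that carry a receptor and less of its RNA per cell cannot be told apart.

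The receptors differed widely between conditions: the highest and lowest WT group means lay between 2.40-fold (Cxcr5) and 110-fold (Ccr4) apart. A receptor was called at a Benjamini-Hochberg adjusted p under 0.05 in limma, over all 13082 genes. Each call can be read against the share of all genes called in the same comparison. In WT cells, Th0 differed from naive cells in 5 of the 7 receptors (53.6% of all genes were called), Th1 from Th0 in 3 (10.8%), Th2 from Th0 in 5 (40.1%), Th17 from Th0 in 6 (39.1%) and Treg from Th0 in 4 (41.6%). In KO cells the counts were 6 of 7 for Th0 against naive (40.8% of all genes), 2 for Th1 against Th0 (8.49%), 5 for Th2 (43.3%), 6 for Th17 (51.6%) and 2 for Treg (19.6%). Comparisons with Th0 share the Th0 samples. Over all 15 pairs of conditions and the 7 receptors, 77 of 105 WT differences and 72 of 105 KO differences passed. In the 10 pairs not listed above, 54 of 70 passed in WT cells, where 48.2% of all genes did, and 51 of 70 in KO cells, where 45.8% did.

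**Figure D1:**
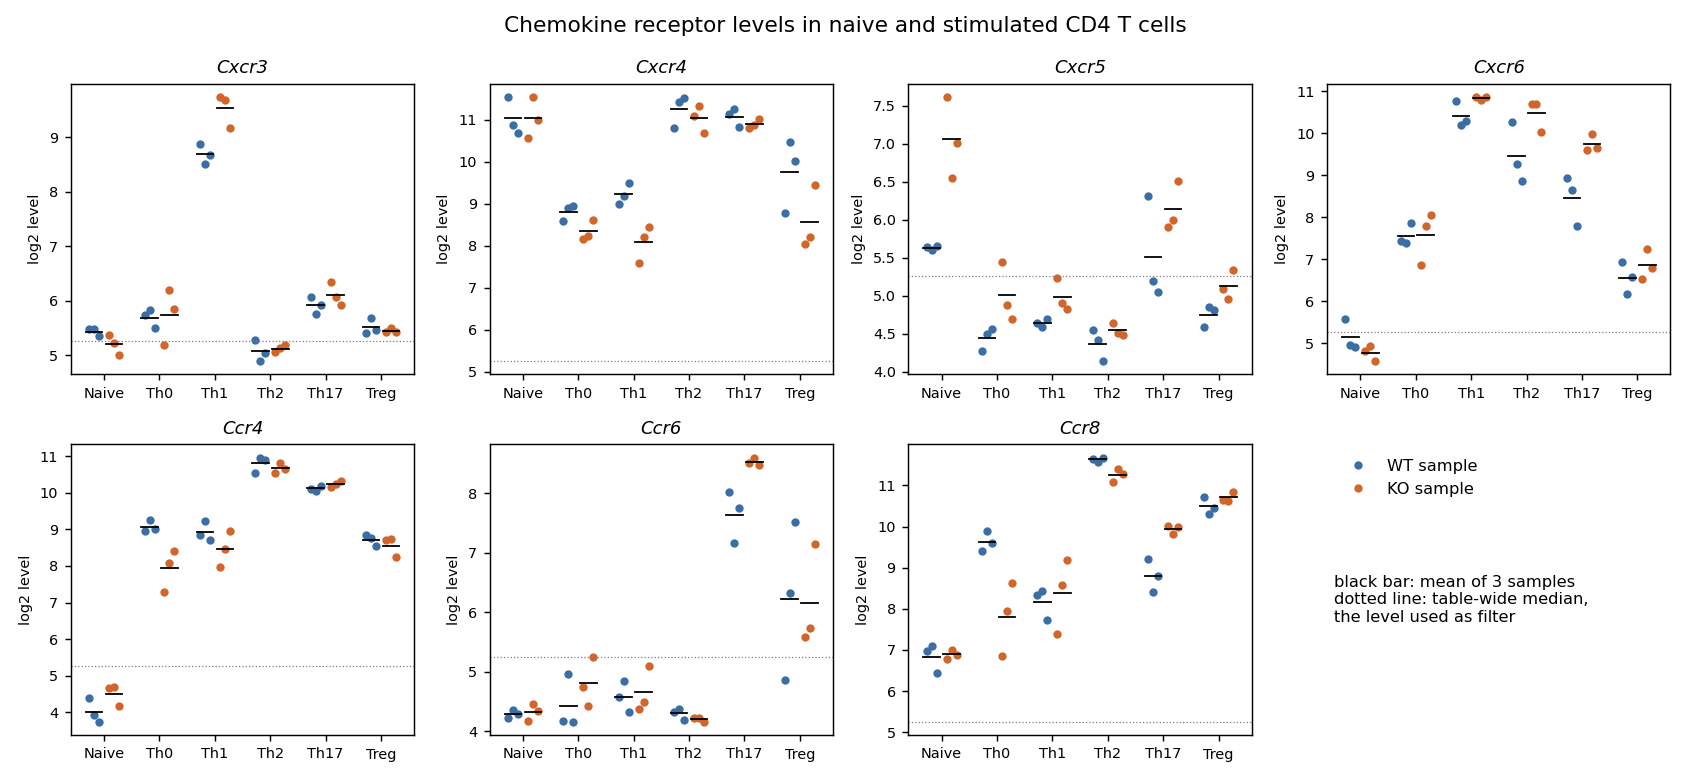
Log2 array level (vertical axis) of each receptor in naive, Th0, Th1, Th2, Th17 and Treg cells (horizontal axis); each point is 1 sample, WT blue and KO orange, black bars are means of 3 samples and the dotted line is the filter level of 5.26. Cxcr3 stands out in Th1, Ccr6 in Th17 and part of the Treg samples, and Ccr4 and Ccr8 are highest in Th2 cells of both genotypes.

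Between KO and WT cells, 6 of the 7 receptors differed in 1 or 2 of the conditions. The share of all genes called in at least 1 condition was not counted, so 6 of 7 does not set the receptors apart. Of the 42 comparisons of KO with WT (7 receptors in 6 conditions), 9 passed, 5 higher and 4 lower in KO cells. Between 1.15% and 40.7% of all genes were called per condition. Cxcr5 rose in naive cells (1 of 7 called, against 1.15% of all genes). In Th0 cells Ccr4 and Ccr8 fell (2 of 7, against 36.4%), and in Th1 cells Cxcr3 rose and Cxcr4 fell (2 of 7, against 40.7%). Cxcr6 rose in Th2 cells (1 of 7, against 16.4%), Cxcr6 and Ccr8 rose in Th17 cells (2 of 7, against 8.21%), and Cxcr4 fell in Treg cells (1 of 7, against 4.22%). Ccr6 passed in none of the 6 conditions by limma, with 1 at an unadjusted p under 0.05. Counts of 1 or 2 in 7 are too small to set the receptors apart from all genes. Averaged over the 6 conditions, Cxcr5 rose by 0.58 (SE 0.10, adjusted p 2.4e-05), Cxcr6 rose by 0.44 (SE 0.13, p 0.0066) and Cxcr4 fell by 0.53 (SE 0.14, p 0.0029), 3 of 7 receptors, against 46.4% of all genes.

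**Figure D2:**
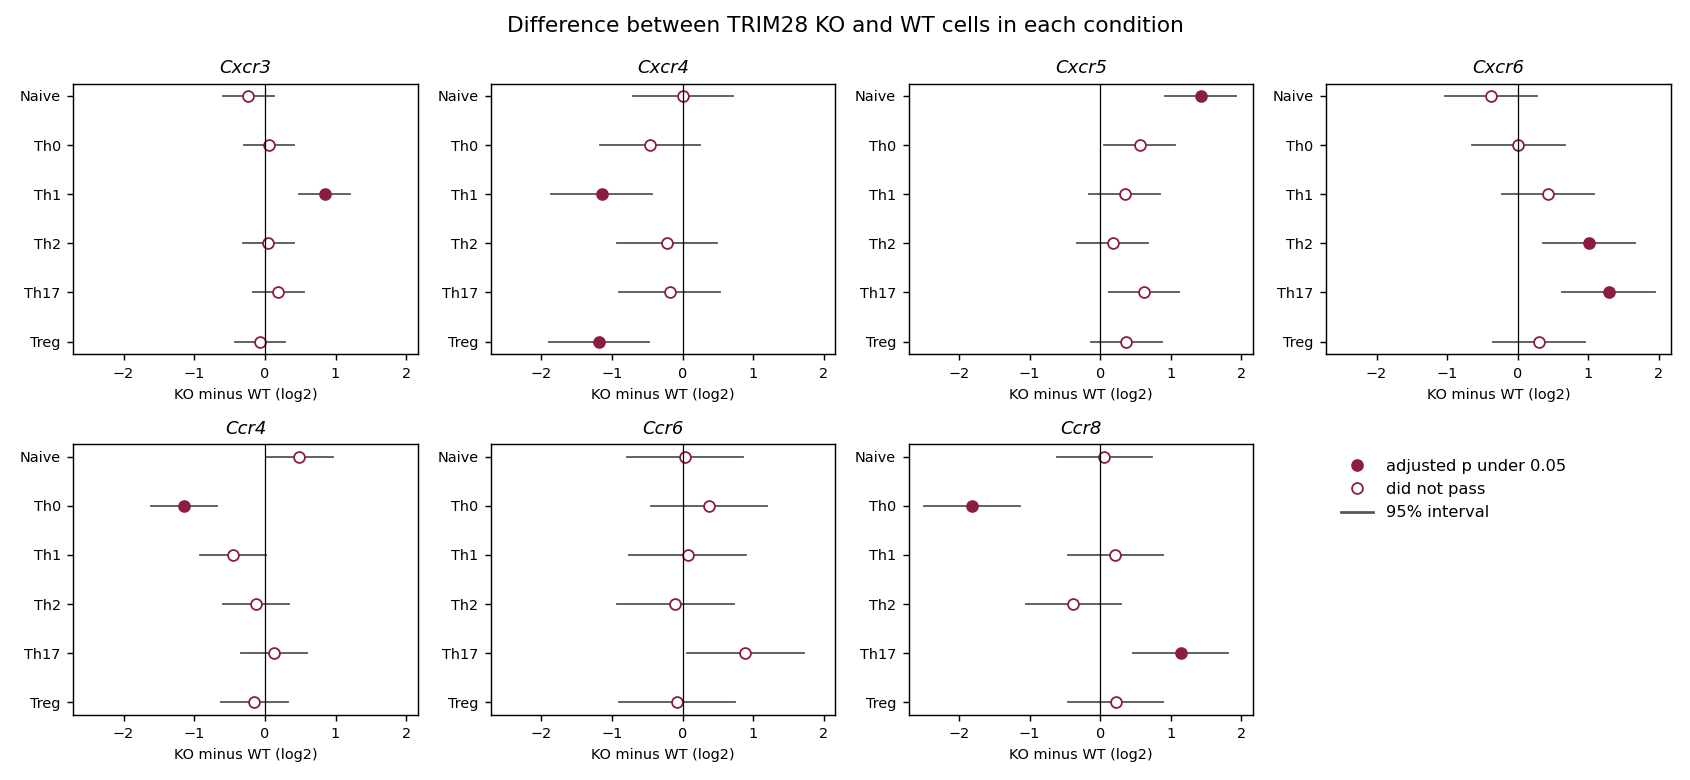
KO minus WT difference in log2 level (horizontal axis) of each receptor in each condition (vertical axis); points are limma estimates from 3 against 3 samples, lines are 95% intervals and filled points passed at an adjusted p under 0.05. Ccr8 lies at -1.81 in Th0 and at 1.14 in Th17 cells, on opposite sides of 0, whereas no point of Ccr6 is filled.

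Cxcr3 was a Th1 gene in both genotypes. The WT Th1 samples read 8.88, 8.50 and 8.68 and the WT Th0 samples 5.74, 5.82 and 5.5, a rise of 3.0 (SE 0.17, 7.99-fold, adjusted p 8.0e-13). All Th1 samples lay far above every other sample of the series. The next highest WT mean, 5.92 ± 0.16 (SD, n = 3) in Th17 cells, did not differ from Th0 (adjusted p 0.31), and neither did the neighbours below it, Treg and naive. Th2 cells had the lowest level, 5.07 ± 0.19, and fell by 0.61 against Th0 (p 0.0061). This Th2 mean was below the filter level, and the Th0 mean, 5.69, was little above it.

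The Cxcr3 level of Th1 cells rose further without TRIM28. The KO Th1 samples read 9.74, 9.68 and 9.17, all above the 3 WT Th1 samples. The difference was 0.85 (SE 0.17, 95% interval 0.49 to 1.20, 1.80-fold, p 0.00034), and it passed under all 51 alternatives, in 36 of which 1 sample was left out. Cxcr3 rose 13.8-fold from KO Th0 to KO Th1 cells (3.79, SE 0.17, p 7.5e-15). In the other conditions the KO minus WT difference was between -0.23 and 0.19, with no call. Tbx21, which encodes T-bet, had a group mean of 10.79 in WT and 10.27 in KO Th1 cells. These means are given without a test, and the part of Tbx21 in the Cxcr3 level was not tested.

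In KO cells, Cxcr3 was also called higher in Th0 than in naive cells (0.54, SE 0.17, p 0.014) and lower in Th2 than in Th0 cells (-0.62, SE 0.17, p 0.0048). The KO naive and KO Th2 means, 5.20 and 5.12, were below the filter level. The KO Th0 samples were uneven, at 5.18, 6.19 and 5.85. Without KO Th0 1 the first was 0.82 (p 0.00016). It was lost without KO Th0 2 (0.32, p 0.16), KO Th0 3 (0.49, p 0.055) or KO naive 3 (0.45, p 0.078), and the second without KO Th0 2 (-0.40, p 0.069).

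Cxcr6 rose on stimulation and rose again in Th1, Th2 and Th17 cells. Its WT levels were 5.58, 4.97 and 4.91 in naive cells, 7.43, 7.39 and 7.86 in Th0 cells and 10.75, 10.19 and 10.29 in Th1 cells. The WT naive mean, 5.15, was below the filter level. The groups did not overlap, and the rises were 2.41 from naive to Th0 (SE 0.32, 5.31-fold, p 3.2e-07) and 2.85 from Th0 to Th1 (SE 0.32, 7.21-fold, p 2.0e-07). WT Th2 cells followed at 9.47 ± 0.73 and WT Th17 cells at 8.45 ± 0.60, and each neighbour in the order Th1, Th2, Th17, Th0, Treg, naive differed from the next. The rise of 0.89 from Th0 to Th17 (p 0.027) lost its call without WT Th0 1 (0.83, p 0.082), WT Th0 2 (0.80, p 0.089), WT Th17 1 (0.66, p 0.15) or WT Th17 2 (0.79, p 0.098). Treg cells were the one polarized condition below Th0, by 1.0 (SE 0.32, p 0.012), a call lost without WT Th0 3 (-0.85, p 0.064) or WT Treg 2 (-0.81, p 0.078).

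Without TRIM28, Cxcr6 was higher in Th17 and Th2 cells. In Th17 cells the WT samples read 8.92, 8.65 and 7.78 and the KO samples 9.61, 9.97 and 9.64, which did not overlap. The rise was 1.29 (SE 0.32, 2.44-fold, p 0.0097), and it missed the threshold without WT Th17 3 (0.95, p 0.11) or KO Th17 2 (1.17, p 0.055). In Th2 cells the WT samples were at 10.28, 9.26 and 8.86 and the KO samples at 10.70, 10.70 and 10.03, so 1 WT sample lay within the KO range. That rise was 1.01 (SE 0.32, 2.02-fold, p 0.028), and it was lost without WT Th2 2 (0.91, p 0.097), WT Th2 3 (0.71, p 0.19), KO Th2 1 (0.90, p 0.11) or KO Th2 2 (0.90, p 0.12). In Th1 cells the KO samples, at 10.85, 10.79 and 10.86, lay above the WT samples by 0.43 on average (SE 0.32, 95% interval -0.23 to 1.08, p 0.31).

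Single myeloid markers also differed between KO and WT cells, in Th2, Th17 and Treg cells. Of 6 listed genes 5 were measured. Their summed log2 level ran from 29.1 to 29.8 in WT and from 31.0 to 32.8 in KO Th2 cells, from 25.5 to 26.1 and from 26.4 to 27.0 in Th17 cells, and from 26.1 to 26.9 and from 28.0 to 28.8 in Treg cells. Adgre1 (F4/80) rose by 1.1 in KO Th2 cells and Itgam (CD11b) by 0.77 in KO Th17 and 1.72 in KO Treg cells. Both Itgam means of Th17 cells, 4.45 in WT and 5.22 in KO, were below the filter level. Adgre1 had means of 8.64 in WT and 9.74 in KO Th2 cells, and between 4.16 and 4.90 in all other groups. It was thus high in Th2 cells of both genotypes. No other myeloid gene was called in these conditions. Adgre1 was at -0.24 in Th17 and 0.54 in Treg cells, and Itgam at 0.34 in Th2 cells, with no call. Lyz2 and Csf1r, also on the list, stayed below the filter level in every group. Cd68 was above it in every group. Its KO minus WT difference was 0.47 in Th2, 0.46 in Th17 and -0.29 in Treg cells, with no call. Cd8a rose by 1.02 in KO Treg cells (p 0.0078), lost without KO Treg 2 (0.94, p 0.055), WT Treg 2 (0.91, p 0.065) or WT Treg 3 (0.94, p 0.055). In KO Th0 cells, Cd8b1 fell by 0.59 (p 0.026), lost without KO Th0 1 or 3 or WT Th0 1 or 2 (p up to 0.10), and the B cell gene Cd79b by 0.50 (p 0.013), lost without WT Th0 1 (-0.38, p 0.090). Cd79b rose by 0.51 in KO Th17 cells (p 0.038), a call lost without WT Th17 1 or 3 or any 1 of the KO Th17 samples (p up to 0.19). Pax5, another B cell gene, was at the threshold in KO Th1 cells (-0.32, p 0.0496), whereas Ms4a1 (CD20) and Cd79a stayed below the filter level in every group. The part of these markers in the receptor results was not tested.

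Ccr4 was the receptor most changed by stimulation. Its WT samples read 4.39, 3.92 and 3.75 in naive cells and 8.96, 9.25 and 9.01 in Th0 cells, a rise of 5.06 (SE 0.23, 33.3-fold, p 3.6e-16). All naive samples, WT and KO, were below the filter level and all stimulated samples far above it. Th2 cells were highest at 10.80 ± 0.23, then Th17 cells at 10.12 ± 0.06, and both rose over Th0 (by 1.73, p 6.0e-07, and by 1.05, p 0.0005). Th0, Th1 and Treg cells, at 9.07, 8.92 and 8.71, were neighbours that did not differ. KO cells kept Th2 and Th17 at the top, at 10.67 ± 0.14 and 10.24 ± 0.08, which did not differ from each other there (p 0.14).

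Ccr4 fell in KO Th0 cells. The KO Th0 samples were at 7.30, 8.09 and 8.42, all below the lowest WT Th0 sample. The fall was 1.14 (SE 0.23, 2.20-fold, p 0.00027), and it was 0.82 (p 0.0023) with sample 1 of both KO Th0 and KO Th1 left out. It passed under all 51 alternatives. The rise from naive to Th0 was 3.43 in KO cells (SE 0.23, 10.8-fold, p 2.4e-12). In Th1 cells the KO minus WT difference was -0.45 (SE 0.23, p 0.12), and it passed without KO Th1 3 (-0.70, p 0.020). It was 0.49 in naive cells (p 0.59) and between -0.15 and 0.12 in Th2, Th17 and Treg cells, with no call. Within KO cells the Th1 minus Th0 difference of 0.54 (SE 0.23, p 0.16) passed when the samples were paired by number (p 0.019), as the deviations of these groups were, and without KO Th0 3 (0.78, p 0.048) or KO Th1 1 (0.79, p 0.030). The KO Treg minus Th0 difference of 0.62 (p 0.054) reached p 0.04996 with the replicate number as a block, and it passed in 13 of 51 alternatives, 6 of them with 1 sample left out (up to 0.86, p 0.011, without KO Th0 3) and the lowest p, 0.0051, with array weights.

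Ccr8 was high in Th2 and Treg cells and was the receptor whose genotype difference varied most between conditions. In WT cells it rose from 6.96, 7.09 and 6.44 in naive to 9.40, 9.89 and 9.59 in Th0 samples, by 2.80 (SE 0.33, 6.95-fold, p 4.2e-08). WT Th2 samples read 11.65, 11.58 and 11.68, above all other samples, and the rise over Th0 was 2.01 (SE 0.33, 4.03-fold, p 1.6e-05). Th1 cells fell below Th0 by 1.46 (SE 0.33, p 0.0028), to 8.17 ± 0.38. Treg cells were above Th0 by 0.87 (p 0.036), lost without WT Th0 1 (0.75, p 0.12), WT Th0 3 (0.85, p 0.080), WT Treg 1 (0.75, p 0.11) or WT Treg 3 (0.89, p 0.069). Th17 cells lay below Th0 by 0.82 (p 0.0497), at the threshold, and leaving out 1 sample ended that call in 29 of 36 cases, with p up to 0.21 (-0.62 without WT Th17 2).

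Without TRIM28 the order of the Ccr8 levels changed. KO Th0 samples were at 6.87, 7.95 and 8.62, all below the WT Th0 samples, and the lowest, number 1, lay within the naive range. The fall was 1.81 (SE 0.33, 3.52-fold, p 9.5e-05), or 1.34 (p 8.7e-05) with sample 1 of both KO Th0 and KO Th1 left out, and it passed under all 51 alternatives. KO Th17 samples read 10.02, 9.83 and 9.99 and WT Th17 samples 9.22, 8.42 and 8.79, so the genotypes differed in the other direction, by 1.14 (SE 0.33, 2.20-fold, p 0.029). This call was lost without WT Th17 2 (0.94, p 0.12), WT Th17 3 (1.13, p 0.089), KO Th17 1 (1.1, p 0.091), KO Th17 2 (1.20, p 0.058) or KO Th17 3 (1.12, p 0.074). The samples nonetheless did not overlap.

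Read within KO cells, Ccr8 rose over Th0 in Th2 (by 3.44, 10.9-fold), Treg (by 2.90, 7.46-fold) and Th17 cells (by 2.13, 4.39-fold). The adjusted p values were 1.5e-09, 1.2e-07 and 3.6e-06. Th1 was above Th0 by 0.57 (p 0.34), which passed when samples were paired by number (p 0.011) or without KO Th1 1 (1.07, p 0.023). The rise from naive to Th0 was 0.92 (SE 0.33, 1.90-fold, p 0.026), and the groups overlapped. Without KO Th0 1 it was 1.40 (p 0.00085). The call was lost without KO Th0 3 (0.52, p 0.24), KO Th0 2 (0.86, p 0.077), KO naive 1 (0.87, p 0.072) or KO naive 3 (0.91, p 0.062).

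**Figure D3:**
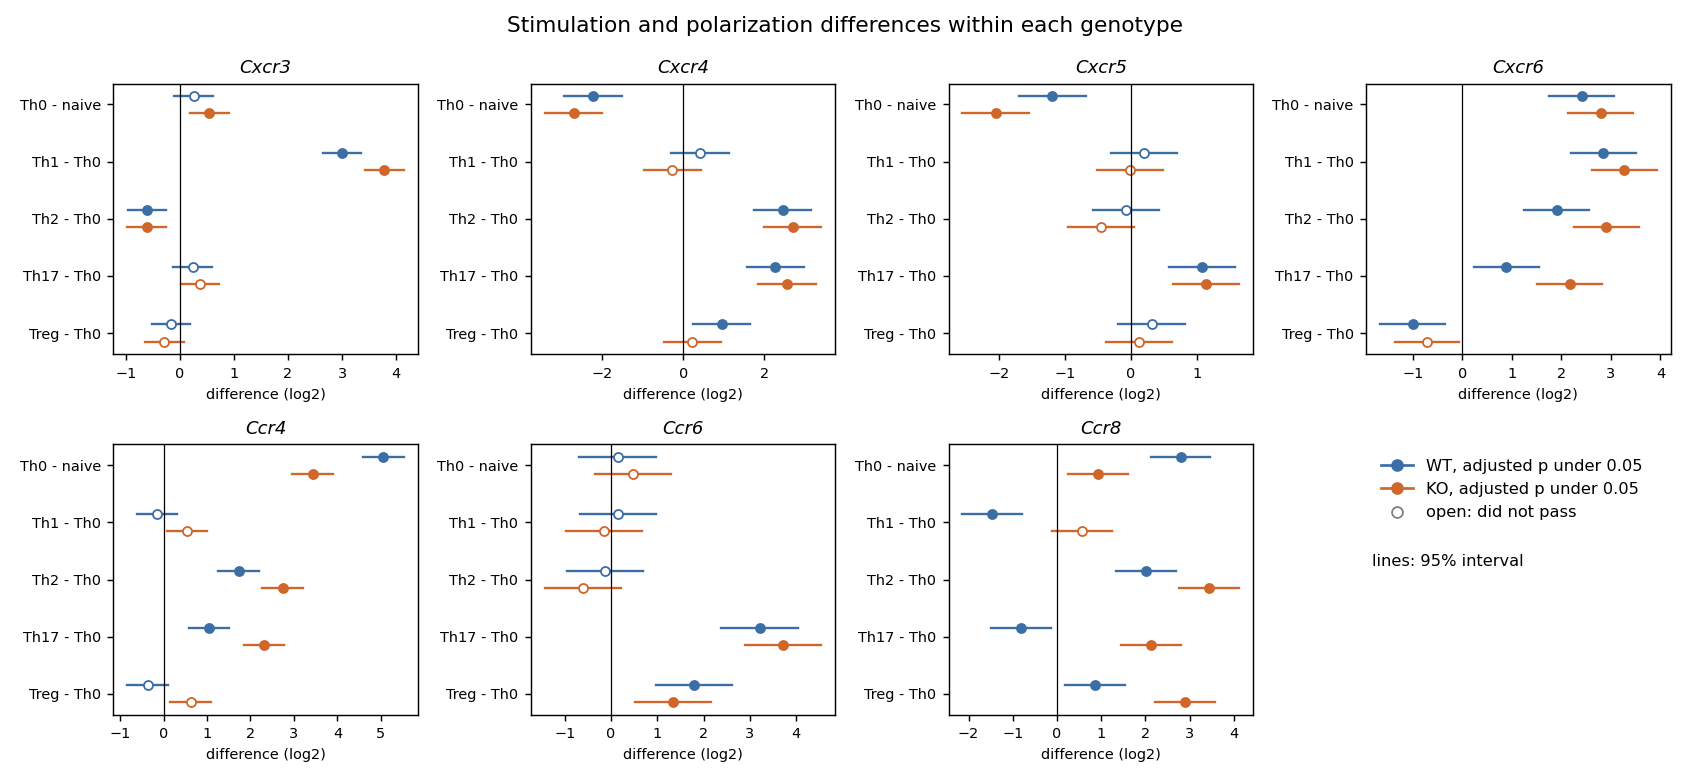
Difference in log2 level (horizontal axis) from naive to Th0 and from Th0 to each polarized condition (vertical axis) for each receptor, WT blue and KO orange; points are limma estimates from 3 against 3 samples, lines 95% intervals, and filled points passed. In WT cells Ccr8 is below Th0 in Th1 (-1.46) and Th17 (-0.82), and in KO cells it is above Th0 in Th17 (2.13).

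Ccr6 was a Th17 gene that part of the Treg samples shared. WT Th17 samples read 8.01, 7.16 and 7.75 and WT Th0 samples 4.16, 4.97 and 4.16, a rise of 3.21 (SE 0.40, 9.26-fold, p 1.8e-07). WT Treg samples were spread over 4.86, 6.32 and 7.51, the widest group of any receptor (SD 1.33), and they overlapped with both Th17 and Th0. Their rise over Th0 was 1.80 (SE 0.40, p 0.00062), and without WT Treg 3 it was 1.16 (p 0.014). Naive, Th0, Th1 and Th2 cells all had means between 4.29 and 4.58, below the filter level, and did not differ.

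KO Th17 samples, at 8.51, 8.60 and 8.48, all lay above the WT Th17 samples, but the difference of 0.89 did not pass (SE 0.40, 95% interval 0.06 to 1.71, p 0.20). It passed with array weights (0.85, p 0.045) and in a fit to the Th17 samples alone (p 0.028). That fit paired by number gave p 0.043, but replicate numbers did not pair KO with WT Th17 samples (correlations of deviations 0.11, -0.12 and 0.22). KO Treg samples were at 5.58, 5.74 and 7.15, again uneven. They were above KO Th0 cells by 1.34 (SE 0.40, p 0.017), a call lost without KO Treg 3 (0.85, p 0.16) or KO Th0 2 (1.16, p 0.081). Between KO and WT Treg cells the difference was -0.08 (SE 0.40, p 0.96), and with array weights, which give uneven samples less influence, it was -1.18 (p 0.0071).

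CCL20, the ligand of CCR6, behaved otherwise in Th17 cells. WT Th17 samples read 9.30, 7.62 and 7.83 for Ccl20 and KO Th17 samples 5.53, 5.51 and 5.19, close to the WT Th0 samples at 5.46, 5.78 and 5.55. The fall was 2.84 (SE 0.23, 7.15-fold, p 7.0e-10). Ccl22, a ligand of CCR4, was at 5.62, 5.72 and 6.78 in WT and at 4.55, 4.37 and 4.80 in KO Th17 cells, a fall of 1.47 (SE 0.29, p 0.00094); all Ccl22 samples but the WT Th17 ones were below the filter level. Both genes rose from Th0 to Th17 in WT cells (by 2.65 and 1.70). Neither was called in KO against WT cells of any other condition, and the Ccr4 level of Th17 cells differed by 0.12 (p 0.83) between the genotypes. Cxcl10, a ligand of CXCR3, fell by 0.97 in KO Th1 cells (SE 0.30, p 0.010), where the KO samples, at 4.73, 5.87 and 6.11, lay below all WT samples (6.28, 6.66 and 6.71). The lowest was number 1, and without it the difference was -0.55 (p 0.16).

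**Figure D4:**
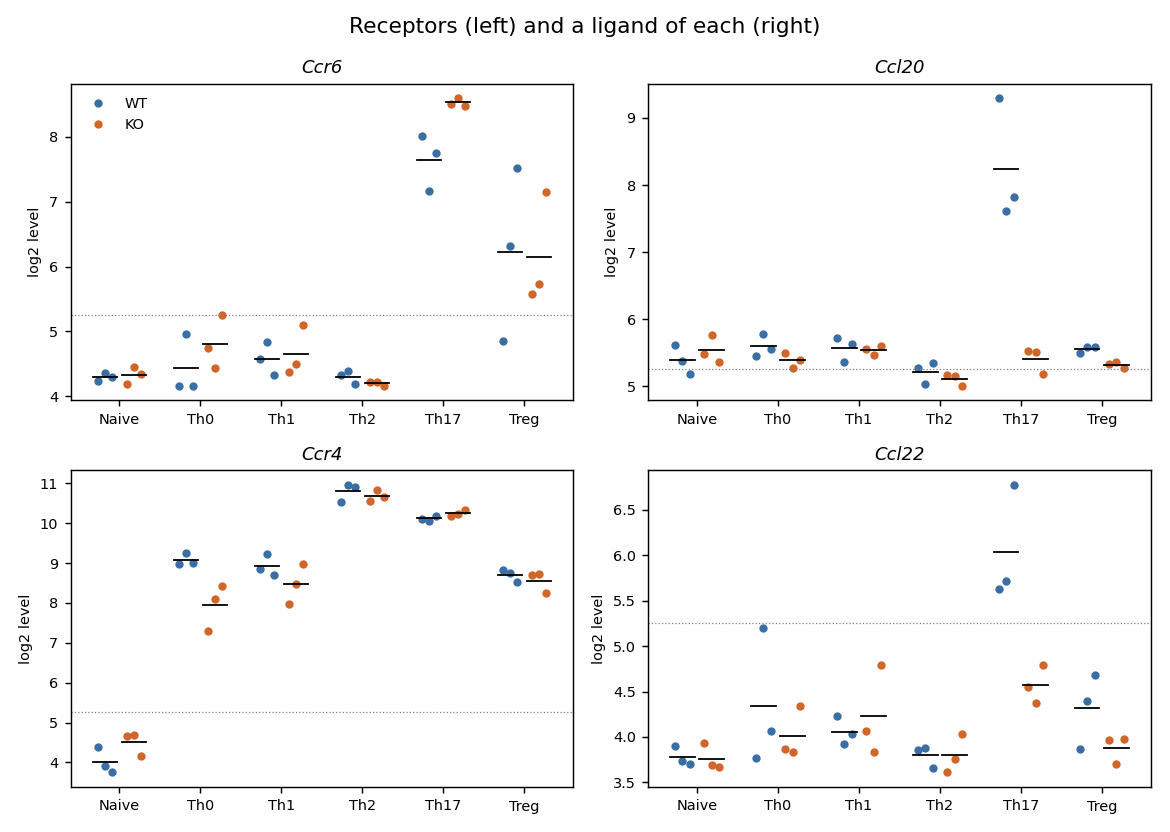
Log2 array level (vertical axis) of Ccr6 and Ccr4 (left) and of their ligand genes Ccl20 and Ccl22 (right) by condition (horizontal axis); points are samples, WT blue and KO orange, bars are means of 3 and the dotted line is the filter level of 5.26. In Th17 cells the KO samples of Ccr6 lie above the WT samples, whereas those of Ccl20, between 5.19 and 5.53, lie below the WT samples, between 7.62 and 9.30.

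Cxcr5 rose in KO naive cells, which had the highest level of it. In WT cells the naive and Th17 means, 5.64 and 5.52, did not differ (p 0.69). WT naive samples read 5.64, 5.6 and 5.66 and KO naive samples 7.62, 6.54 and 7.01. The groups did not overlap, and the rise was 1.42 (SE 0.24, 95% interval 0.92 to 1.92, 2.68-fold, p 0.00058). With the Xist level as a covariate it was 1.41 (p 0.0019). Bcl6, a factor of follicular helper cells, was not called in naive cells, and it rose in KO Th0 (by 1.65), Th1 (1.14), Th2 (1.58) and Th17 cells (1.31).

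Stimulation lowered Cxcr5 in both genotypes, by 1.19 in WT (SE 0.24, 2.28-fold, p 0.00015) and by 2.05 in KO cells (SE 0.24, 4.15-fold, p 1.3e-07). WT Th0, Th1, Th2 and Treg means lay between 4.37 and 4.75, below the filter level. Th17 was the stimulated condition with more of it: WT samples read 6.31, 5.19 and 5.05 and KO samples 5.90, 6.0 and 6.51, above Th0 by 1.07 (p 0.00076) and 1.13 (p 0.0003). Without WT Th17 1 the WT rise was 0.67 (p 0.017). The genotypes differed by 0.62 in Th17 cells (SE 0.24, p 0.13). WT Th17 1 was the high sample, and without it the difference was 1.02 and passed (p 0.0038). KO samples lay above all WT samples in Th0, Th1 and Treg cells too, with differences of 0.56 (p 0.074), 0.35 and 0.37 that did not pass. The KO means there, 5.01, 4.99 and 5.13, were below the filter level as well. The Th0 difference passed without KO Th0 3 (0.72, p 0.042) or WT Th17 1 (0.56, p 0.026).

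Cxcr4 fell on stimulation and was high again in Th2 and Th17 cells. WT naive samples read 11.54, 10.88 and 10.69 and WT Th0 samples 8.58, 8.90 and 8.94, a fall of 2.23 (SE 0.35, 4.69-fold, p 3.8e-06). WT Th2 (11.26 ± 0.39), Th17 (11.08 ± 0.22) and naive cells (11.04 ± 0.44) formed the upper neighbours, which did not differ. The rises over Th0 were 2.45 in Th2 (5.46-fold, p 1.8e-06) and 2.27 in Th17 cells (4.83-fold, p 4.5e-06). In KO cells these were 2.69 and 2.55. WT Treg samples were uneven at 8.78, 10.47 and 10.01. Their rise of 0.94 over Th0 (p 0.029) was 1.43 (p 0.0011) without WT Treg 1, and it was lost without WT Th0 1 (0.83, p 0.10), WT Th0 2 (0.99, p 0.051), WT Treg 2 (0.59, p 0.22) or WT Treg 3 (0.81, p 0.11). WT Th1 cells lay above Th0 by 0.42 (p 0.56), which passed when samples were paired by number (p 0.020).

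Cxcr4 was lower in KO Th1 and KO Treg cells. WT Th1 samples read 9.0, 9.18 and 9.49 and KO Th1 samples 7.58, 8.20 and 8.45, with no overlap. The fall was 1.15 (SE 0.35, 2.21-fold, p 0.0091), and without KO Th1 1, the lowest sample and one of those that stood apart, it was 0.90 (p 0.075). In Treg cells the KO samples, at 8.04, 8.20 and 9.46, overlapped with the WT samples, and the fall of 1.18 (SE 0.35, 2.27-fold, p 0.048) was at the threshold. Leaving out 1 sample ended that call in 26 of 36 cases, with a difference of -0.83 (p 0.35) without WT Treg 2. In naive, Th0, Th2 and Th17 cells the difference was between -0.46 and 0.01, with no call.

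The study's design also asks whether a genotype difference depends on the condition. Over the 6 conditions together, limma's F test passed for Ccr8 (adjusted p 0.00046), Ccr4 (0.0043), Cxcr3 (0.013) and Cxcr6 (0.030), against 38.2% of all genes, and not for Cxcr5 (0.0505), Cxcr4 (0.16) and Ccr6 (0.62). Over the 5 stimulated conditions it passed for Ccr8 (0.00028), Ccr4 (0.021) and Cxcr3 (0.025), against 36.5% of all genes. Of 77 single differences of the genotype effect (7 receptors, 11 pairs of conditions), 11 passed. Per pair this was between 0 and 2 of 7 receptors, where between 0.589% and 29.9% of all genes were called. Such counts are too small to set the receptors apart from all genes. The pairs with Th0 share the Th0 samples.

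Ccr8 gave 5 of these. Its KO minus WT difference changed by -1.87 from naive to Th0 cells (SE 0.47, p 0.0063) and by 2.95 from Th0 to Th17 (SE 0.47, p 0.00011), 2.03 to Treg (p 0.0020), 2.03 to Th1 (p 0.036) and 1.43 to Th2 cells (p 0.047). The first 3 passed under all 50 alternatives run. Without KO Th0 1, the lowest Ccr8 sample of the group, the change from Th0 to Th1 was 1.56 (p 0.13) and to Th2 0.96 (p 0.20). The Th1 call was also lost without WT Th0 2 or 3, WT Th1 3, KO Th0 2 or KO Th1 2 or 3 (p between 0.051 and 0.15), and the Th2 call with 26 of 36 samples left out.

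Ccr4 gave 4 and Cxcr3 gave 2. The Ccr4 difference changed by -1.63 from naive to Th0 cells (SE 0.32, p 0.0012) and by 1.26 from Th0 to Th17 (SE 0.32, p 0.0086), 1.01 to Th2 (p 0.043) and 0.99 to Treg cells (p 0.023). The changes from naive to Th0 and from Th0 to Th17 passed under all 50 alternatives run. Without KO Th0 1 the change to Th2 was 0.70 (p 0.18) and to Treg 0.67 (p 0.11). The Th2 call was also lost without any 1 of the WT Th0 and WT Th2 samples, KO Th2 2 or KO Th2 3, and the Treg call without WT Th0 2, WT Treg 3, KO Treg 1 or KO Treg 2. The Cxcr3 difference of Th1 cells exceeded that of Treg cells by 0.91 (SE 0.25, p 0.0066) and that of Th2 cells by 0.80 (p 0.038), the latter lost without WT Th1 2 or 3, WT Th2 1 or 3, KO Th1 1 or 2 or any 1 of the KO Th2 samples (p between 0.057 and 0.13).

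Over all genes, the share called for a change of the genotype effect was 18.5% from naive to Th0, 0.589% from Th0 to Th1, 10.2% from Th0 to Th2, 15.6% from Th0 to Th17 and 27% from Th0 to Treg. Ccr8 and Ccr4 were thus called in the first, where 2 of 7 receptors passed, and Ccr8 alone in the second. It was 10.1% from Th1 to Th2 and 29.9% from Th1 to Treg, in each of which Cxcr3 was the 1 receptor called. No receptor was called from Th1 to Th17 (17.3% of all genes), Th2 to Th17 (4.46%), Th2 to Treg (8.82%) or Th17 to Treg (4.83%). In these 4 pairs 1, 1, 0 and 1 receptors had an unadjusted p under 0.05. Near the threshold were the Cxcr6 change from Th0 to Th17 (1.28, p 0.053), which passed in 14 of 50 alternatives, the Ccr8 change from Th2 to Th17 (1.52, p 0.060), which passed in 10, and the Cxcr3 change from Th1 to Th17 (-0.66, p 0.065), which passed in 5.

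The receptors did not share 1 pattern. Over the 12 group means, which share the samples and normalization of 1 series, the Pearson correlation was 0.80 between Ccr4 and Ccr8, 0.78 between Cxcr6 and Ccr4 and 0.57 between Cxcr3 and Cxcr6, and lowest between Cxcr5 and Ccr4 (-0.59). Among the tested genes with a characterized symbol, those most like Cxcr3 were Ano7 (0.98), Tbx21 (0.96) and P2rx3 (0.93), and those most like Ccr4 were Golga7 (0.99), Glipr2 (0.99) and Tnfrsf4, the costimulatory receptor OX40 (0.98). For Ccr6 these were Rexo4 (0.97), Ufsp1 (0.97) and Myo3b (0.96), and for Cxcr6 Casp4, an inflammatory caspase (0.95), Fam83h (0.94) and Csf1 (0.94). Cxcr4 was most like Hspa1b, a heat shock protein (0.94), Tiparp (0.94) and Wsb1 (0.93), Ccr8 like Sh2b1 (0.93), Myadm (0.91) and Ralgds (0.91), and Cxcr5 like Ppp1r32 (0.89), Rapgefl1 (0.88) and Grm6 (0.87).

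Of 16 other chemokine receptor genes 8 were tested. In WT cells, Ccr2, a receptor for monocyte chemoattractants, rose by 3.35 from naive to Th0 (SE 0.39) and fell by 3.68 from Th0 to Treg cells. Ccr10 rose by 3.16 in Th2 cells and Cxcr1 by 4.12 in Th1 cells. Ccr7, which leads naive cells into lymph nodes, fell by 0.38 from naive to Th0. In KO against WT cells, 0 of the 8 passed in limma in naive cells (0 at an unadjusted p under 0.05; 1.15% of all genes called) and in Th2 cells (1 unadjusted; 16.4%). In Th0 cells 1 rose, Ccr7 (0.35; 36.4% of all genes called), in Treg cells 1, Cx3cr1 (0.99; 4.22%), and in Th17 cells 1, Cxcr2 (0.83; 8.21%), which was lost without KO Th17 1 (0.59, p 0.12). In Th1 cells (40.7%) 2 rose and 3 fell. Cx3cr1 rose there by 0.63, lost without KO Th1 3 (0.57, p 0.055) or WT Th1 1 (0.48, p 0.10). Cxcr2 (-1.16), Ccrl2 (-1.16) and Cxcr1 (-1.03) fell, and Ccrl2 was lost without KO Th1 1 (-0.87, p 0.066). Over all 15 measured genes of the list the median KO minus WT difference lay between -0.04 in naive and 0.22 in Th17 cells, and over the 8 tested genes between -0.02 and 0.44, beside medians of all genes between -0.03 and 0.00. Of 12 tested chemokine ligands, Cxcl10 fell in KO Th1 cells (1 of 12, against 40.7% of all genes) and Ccl20 and Ccl22 in KO Th17 cells (2 of 12, against 8.21%). In naive, Th0, Th2 and Treg cells 0 ligands were called by limma, and 0, 1, 0 and 0 had an unadjusted p under 0.05.

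Of 26 tested signalling and desensitization genes, 4 rose and 3 fell in KO Th0 cells (36.4% of all genes called), 5 rose and 2 fell in Th1 (40.7%) and 2 rose and 2 fell in Th2 cells (16.4%). With sample 1 of both KO Th0 and KO Th1 left out, 1 rose and 2 fell in Th0 (28.9% of all genes) and 3 rose and 2 fell in Th1 cells (29.7%). In naive (1.15%), Th17 (8.21%) and Treg cells (4.22%) 0 were called by limma, and 1, 3 and 8 had an unadjusted p under 0.05. Rgs18, which shortens G protein signals, fell by 1.4 in KO Th0 cells (p 0.0028), and without KO Th0 1 the difference was -0.88 (p 0.053). Pik3cg, the kinase that G proteins activate, fell by 0.54 there and by 0.67 in KO Th2 cells. Dock2, the exchange factor of Rac in lymphocytes, rose by 0.47 in KO Th1 cells. Of 14 tested genes of tissue exit and homing, 5 rose and 1 fell in KO Th0 (36.4% of all genes called), 6 and 3 in Th1 (40.7%), 4 and 2 in Th2 (16.4%), 0 and 1 in Th17 (8.21%) and 1 and 0 in Treg cells (4.22%). In naive cells 0 were called by limma, with 2 at an unadjusted p under 0.05 (1.15%). Without those same 2 samples, 4 rose and 1 fell in Th0, 5 and 2 in Th1, and 1 and 1 in Treg cells (4.72% of all genes). Itga4, the integrin chain that binds VCAM-1, rose by 1.28 in KO Th0 and 1.41 in KO Th1 cells, and S1pr1, the receptor for exit from lymph nodes, rose by 1.13 in KO Th1 cells.

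Of the 15 tested lineage factors, 0 were called in KO naive cells by limma, with 1 at an unadjusted p under 0.05 (1.15% of all genes called). In KO cells, 4 rose and 1 fell in Th0 (36.4%), 5 and 3 in Th1 (40.7%), 1 and 2 in Th2 (16.4%), 3 and 1 in Th17 (8.21%) and 0 and 2 in Treg cells (4.22%). With sample 1 of both KO Th0 and KO Th1 left out, 4 rose and 0 fell in Th0 (28.9% of all genes) and 5 and 1 in Th1 cells (29.7%). Beside the raised Cxcr3 of KO Th1 cells, Eomes fell by 2.55 and Foxp3 rose by 2.05. Beside the raised Cxcr6 and Ccr8 of KO Th17 cells, Maf fell by 1.21 and Batf rose by 0.71. In KO Treg cells, where Ccr8 and Ccr6 did not pass, Maf fell by 1.43 and Rora by 0.96.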

How the data were processed

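RNA of 36 samples was measured on Affymetrix GeneTitan arrays, per the labels' protocols. The deposited table holds log2 values of 41345 probe sets made with oligo (RMA) under R 3.1.0, per the submitters' processing notes; the oligo version is not given in the sources used here. Of these, 23521 probe sets had 1 gene symbol in the platform annotation, 1814 several and 16010 none, and for a gene with several probe sets the one with the highest mean was used. From these values a 12-group means model over all 36 samples was fitted here with limma 3.58.1 in R 4.3.3 (24 residual degrees of freedom), with no batch term, on the 13082 genes above the table-wide median in at least 3 samples. P-values were adjusted by Benjamini-Hochberg within each comparison over all genes tested, with a threshold of 0.05, and all tests were two-sided. The fit was tested on simulated data. The receptors and the gene lists were chosen with earlier results of these data known. Genes named from the lists were the called members with the largest changes, at most 4 per list and comparison, and the 3 genes most correlated with each receptor. Replicate numbers were checked by correlating deviations from group means over genes: all 3 correlations were over 0.1 in 5 of 15 WT pairs of conditions, 3 of 15 KO pairs and 0 of 6 KO with WT pairs, so numbers pair samples within a genotype for those 8 pairs only, a pairing seen in the data and not given by the labels. Alternatives were 15 other settings and leaving out each of 36 samples; the fit of the groups compared with the replicate block, and the leave-outs of listed genes, markers and Mki67, were added after seeing the data. For an array, the number of samples limits the precision.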

Additional observations from a re-analysis of the deposited data

Results flagged for a closer look

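The results below were singled out because the genotype difference of a receptor changed between 2 conditions, by limma's test of that change itself. For Ccr8, the KO minus WT difference changed by -1.8738 (log2) from naive to Th0 cells, by 2.0303 from Th0 to Th1, by 1.4330 from Th0 to Th2, by 2.9526 from Th0 to Th17 and by 2.0339 from Th0 to Treg cells. For Ccr4 it changed by -1.6290 from naive to Th0, by 1.0141 from Th0 to Th2, by 1.2634 from Th0 to Th17 and by 0.9915 from Th0 to Treg cells. For Cxcr3 it changed by -0.7978 from Th1 to Th2 and by -0.9129 from Th1 to Treg cells. All 9 changes of Ccr8 and Ccr4 use the same Th0 samples. With sample 1 of both KO Th0 and KO Th1 left out, which had low Mki67, the Ccr8 change from Th0 to Th17 was 2.48 (adjusted p 9.1e-06) and the Ccr4 change 0.94 (p 0.019), whereas the Ccr8 change from Th0 to Th2 was 0.96 (p 0.060) and the Ccr4 changes to Th2 and Treg 0.70 (p 0.11) and 0.67 (p 0.067), by limma.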

How the results depend on the processing

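The count of genotype-by-condition changes called was 11 of 77, where between 0.589% and 29.9% of all genes were called per pair of conditions. This count was the least stable: it was 7 with all probe sets tested and 26 with array weights, and between 7 and 16 with 1 sample left out. With 1 sample left out, receptors called for KO minus WT averaged over conditions numbered between 3 and 5 (3 with all samples), and those called in single conditions between 6 and 10 (9). WT pairs of conditions gave between 73 and 79 calls (77) and KO pairs between 69 and 77 (72). For these and the following alternatives the share of all genes called was not counted. Changes of the counts thus do not set the receptors apart from all genes. Single results were followed for KO minus WT, its change between conditions, Th0 against naive and polarized cells against Th0. The 10 other pairs of conditions per genotype were counted but not followed singly. No followed value reversed its direction where called. With the replicate block the counts were 12 changes, 3 averaged differences, 9 KO minus WT differences, 76 WT and 74 KO pairs; with the block in fits of only the groups compared, 9, 78 and 78 for the last 3. Replicate numbers did not pair KO with WT samples; there the block in a fit of naive samples alone gave an adjusted p of 0.061 for Cxcr5, and in Th0 samples 0.025 for Cxcr4. The cause of these differences between settings was not tested. Of the 67 single results so followed and called, 47 kept their call in every alternative run. The 3 samples per group limit what could be detected. So does the low signal of Cxcr5 and Ccr6 outside their high groups and of Cxcr3 outside Th1 cells.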
